A study of Mus musculus with 18 samples.

Results

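The RNA of 10 mouse genes for heat shock proteins and co-chaperones of the cytosol was compared between samples with a normoxia-stable HIF1A (nsHIF1A) and samples with enhanced green fluorescent protein (eGFP). The genes are *Hspa1a*, *Hspa1b*, *Hspa8*, *Hspa4l*, *Hsp90aa1*, *Hsp90ab1*, *Hspb1*, *Hsph1*, *Dnajb1* and *Bag3*. They were taken by name from 78239 genes in each of 2 count tables, and all 10 were detected and tested in both. The question was whether genes that heat shock induces and genes that cells express constitutively differ in their response to *nsHif1a*. Of these genes, 7 were grouped as inducible (*Hspa1a*, *Hspa1b*, *Hsp90aa1*, *Hspb1*, *Hsph1*, *Dnajb1* and *Bag3*) and 2 as constitutive (*Hspa8* and *Hsp90ab1*), and *Hspa4l* was kept apart.

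Hsp70 proteins bind stretches of unfolded polypeptide and release them in a cycle driven by ATP. J-domain proteins such as DNAJB1 deliver the substrate and start ATP hydrolysis, and nucleotide exchange factors such as HSPH1, HSPA4L and BAG3 end the cycle. Hsp90 proteins act later, on clients such as kinases and steroid receptors, and small heat shock proteins such as HSPB1 hold unfolded proteins without ATP. Heat and other proteotoxic stress activate heat shock factor 1 (HSF1), which binds heat shock elements, arrays of inverted GAA units, in the promoters of inducible chaperone genes. Hypoxia-inducible factors bind hypoxia response elements that contain the letters ACGTG or GCGTG.

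In the retinal experiment, mice labelled C57BL/6J received a subretinal injection of AAV::*nsHif1a* or AAV::eGFP at postnatal day 29 to 32, and whole retinas were taken 3 weeks later (5 mice per group). The methods of the study describe 129S6 wild-type mice instead, so the strain is uncertain. Both transgenes were driven by the rod-specific mouse opsin promoter, and the virus reached only part of the retina, so that each library mixes transduced rods with all other retinal cells. In the cell experiment, 661W cells, a single mouse line that is called photoreceptor-like, were transfected with CMV-*nsHif1a* or CMV-eGFP and harvested after 20 h (4 libraries per group). nsHIF1A carries amino acid exchanges that prevent its oxygen-dependent degradation and inactivation.

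The depth was 12898220 to 16167522 counts per retinal library and 13424326 to 17809585 per 661W library. Total *Hif1a* RNA was 9.57-fold higher with *nsHif1a* in 661W cells (log2FC 3.26, SE 0.134, limma adjusted *p* = 1.2e-05) and did not pass the test in the retina (log2FC 0.05, adjusted *p* = 0.50). For whole retinas at the same time after injection, the study reported more HIF1A protein by Western blot. It also reported more RNA of *Bnip3* and *Egln1*, targets of HIF1, by real-time PCR. In the retina, all 8 rod markers had a lower estimate with *nsHif1a*, 4 of them at an adjusted *p* under 0.05, and their summed level, in counts-per-million units (CPM, scaled by TMM), was 43801 to 48516 with eGFP and 34205 to 45537 with *nsHif1a*. The 10 tested lens markers were all higher (summed level 7471 to 18636 against 5931 to 35977 CPM, *Lim2* at 0), as were the 6 markers of microglia and macrophages (12.4 to 102.9 against 30.7 to 106.9 CPM), but none of these passed the test. Among the markers of cones, Müller glia, bipolar cells, amacrine and ganglion cells, endothelial and mural cells and RPE, 1 cone marker and 2 bipolar markers were lower and 1 Müller glia marker higher at an adjusted *p* under 0.05, and no marker of any type, rods included, passed with the fold threshold that is used below. The part of these cell types in the results below was not tested, except where a fit is given. Counts on *Xist*, the RNA that silences one X chromosome in female cells, numbered 19492 to 28595 in all 5 *nsHif1a* retinas and in eGFP retinas 1 and 2, and 1 to 3 in eGFP retinas 3, 4 and 5. In 661W cells most of the rod signal was *Pde6a*, a phosphodiesterase subunit, at 7.07 to 11.7 CPM (117 to 156 counts per library). The other 7 rod genes were at 2.59 CPM or less each, and the 7 cone genes summed to 1.94 CPM or less.

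The promoters of 5 of the genes are shown first, because *Hspa1b*, *Dnajb1* and *Hspa8* were the genes called in the retina, *Hspa1a* is the near-copy of *Hspa1b*, and *Hspb1* had the largest estimate. Each sequence covers the 250 bases before the start of the canonical transcript (gencode M39), 5′ to 3′ on the strand of the gene. Capitals mark a pair of heat shock units (GAANNTTC or TTCNNGAA) or a hypoxia response core (ACGTG or GCGTG, or CACGT or CACGC on the other strand).
*Hspa1a* promoter, GRCm39 chr17:35191133-35191382, minus strand: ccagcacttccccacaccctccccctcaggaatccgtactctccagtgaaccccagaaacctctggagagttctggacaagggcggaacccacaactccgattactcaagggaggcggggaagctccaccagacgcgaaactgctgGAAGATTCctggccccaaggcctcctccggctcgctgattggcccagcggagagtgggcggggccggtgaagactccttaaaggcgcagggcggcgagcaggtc
*Hspa1b* promoter, GRCm39 chr17:35178215-35178464, minus strand: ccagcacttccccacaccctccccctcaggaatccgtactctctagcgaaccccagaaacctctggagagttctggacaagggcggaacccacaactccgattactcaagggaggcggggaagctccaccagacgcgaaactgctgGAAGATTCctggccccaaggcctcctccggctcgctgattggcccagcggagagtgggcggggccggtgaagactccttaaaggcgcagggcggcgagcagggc
*Dnajb1* promoter, GRCm39 chr8:84334572-84334821, plus strand: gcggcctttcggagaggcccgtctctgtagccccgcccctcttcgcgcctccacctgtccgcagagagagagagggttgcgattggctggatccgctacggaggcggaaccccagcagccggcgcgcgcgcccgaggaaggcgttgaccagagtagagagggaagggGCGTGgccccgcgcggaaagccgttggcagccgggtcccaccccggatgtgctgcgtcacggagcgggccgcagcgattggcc
*Hspa8* promoter, GRCm39 chr9:40712030-40712279, plus strand: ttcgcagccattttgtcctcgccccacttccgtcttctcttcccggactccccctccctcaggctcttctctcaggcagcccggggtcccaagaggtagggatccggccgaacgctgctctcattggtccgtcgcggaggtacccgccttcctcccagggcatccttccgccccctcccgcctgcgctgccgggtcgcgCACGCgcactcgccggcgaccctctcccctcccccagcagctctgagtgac
*Hspb1* promoter, GRCm39 chr5:135916510-135916759, plus strand: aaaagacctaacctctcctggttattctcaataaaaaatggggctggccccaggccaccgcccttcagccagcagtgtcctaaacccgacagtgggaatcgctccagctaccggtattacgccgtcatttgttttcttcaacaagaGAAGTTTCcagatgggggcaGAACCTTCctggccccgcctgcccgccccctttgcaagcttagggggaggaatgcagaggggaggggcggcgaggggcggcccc
The windows of *Hspa1a* and *Hspa1b* were identical at 247 of 250 bases, and both held GAAGATTC from base 104 to base 97 before the start. *Hspb1* held the pairs GAAGTTTC and GAACCTTC, and *Hsph1* held TTCTCGAA from base 28 to base 21. No pair of units was found in the windows of *Dnajb1*, *Hspa8*, *Bag3*, *Hsp90aa1*, *Hsp90ab1* and *Hspa4l*. Such pairs were present in 12.29% of 21757 promoters of the same length, and arrays of 3 alternating units in 0.349% of them and in none of the 10 genes. The hypoxia response core, which 41.3% of all promoters hold, was found in *Dnajb1*, *Hspa8*, *Hsp90aa1*, *Hsp90ab1* and, at 2 places, *Bag3*. A match is a match of letters and no evidence of binding, and the absence of one says only that the letters are not in this window.

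*Hspa1a* (chr17:35188166-35191132) and *Hspa1b* (chr17:35175412-35178214) lie on the same strand of chromosome 17, and each has a single exon. Of all 50-base words in the transcripts of *Hspa1b*, 62.3% were also found in *Hspa1a*, and 58.8% of those of *Hspa1a* were found in *Hspa1b*. The division of reads between the 2 genes is therefore uncertain, and their sum is given beside each. *Hspb1* shared 40.8% of its words with the pseudogene *Hsp25-ps1*, *Hsp90aa1* 30.1% with *Gm12346*, and *Hspa8* 14.1% with *Gm15459*, whereas *Hsph1*, *Bag3*, *Dnajb1*, *Hspa4l* and *Hsp90ab1* shared 1.42% or less with any other genes. These partners hold many reads. In the eGFP retinas *Gm15459* had 7265 to 9116 counts and *Gm8355* 1906 to 2617, against 4093 to 4819 for *Hspa8* itself, and *Gm12346* had 6062 to 9176, against 11272 to 18348 for *Hsp90aa1*. The levels of *Hspa8* and *Hsp90aa1* below are therefore those of the reads assigned to them.

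In the retina, 3 of the 10 genes were called higher with *nsHif1a* and none lower. With the *Xist* difference between the groups as a covariate none was called, as described below. The 3 genes were *Hspa1b*, the stress-inducible Hsp70, *Dnajb1*, the inducible J-domain partner of Hsp70, and *Hspa8*, the constitutive Hsp70 (Hsc70) of the cytosol. A gene was called when the limma fit over all genes gave an adjusted *p* under 0.05 and an absolute log2FC above 0.5. By this rule 1.08% of the 18859 genes tested were called up and 0.912% down. Without the fold threshold *Bag3* joined the genes that rose, 4 of 10, against 3.31% of all genes (2.47% were lower by this criterion), but its adjusted *p* was above 0.05 under most alternatives. The median log2FC of the 10 genes was 0.38, against -0.00 for all genes.

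**Figure D1:**
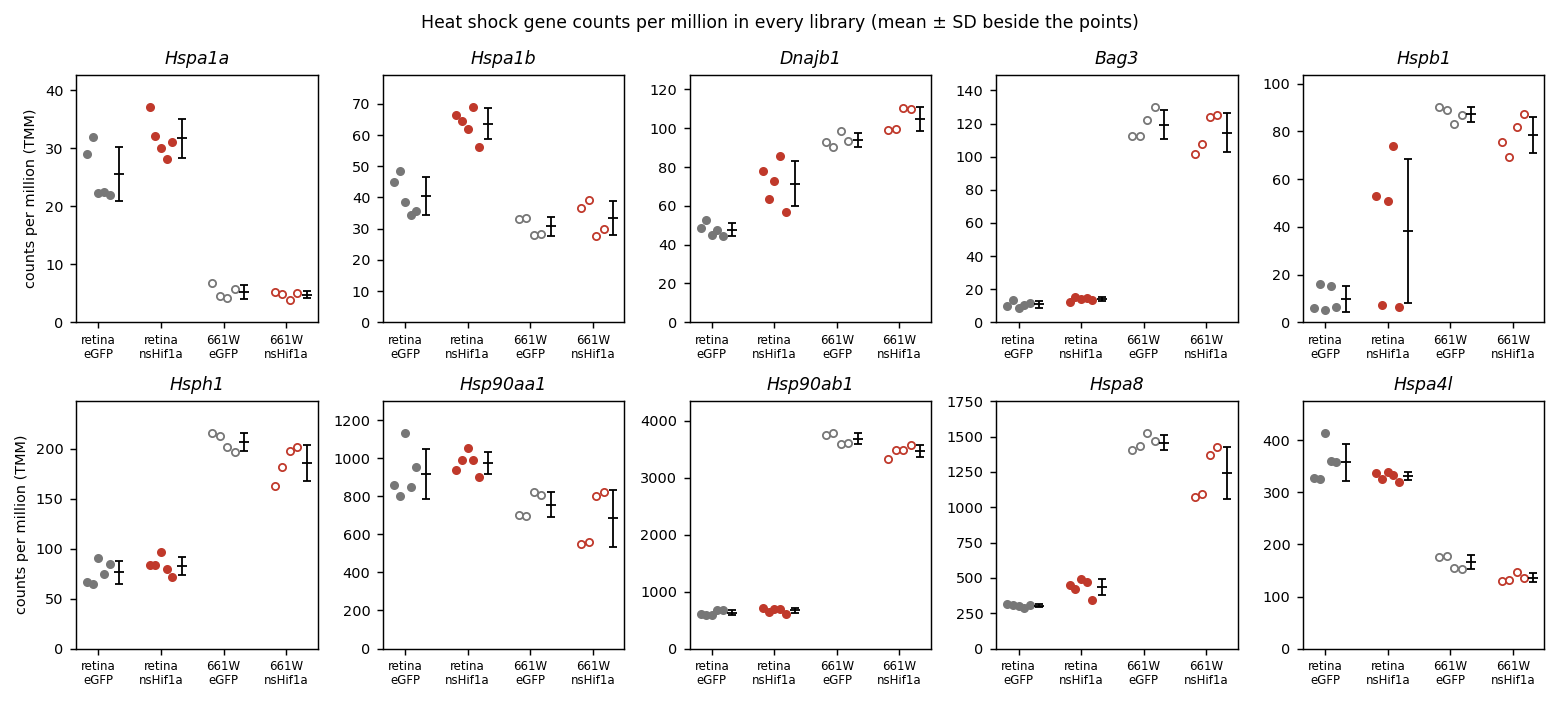
CPM (TMM-scaled) of the 10 genes in every library (vertical axes start at 0 and differ between panels). Points are libraries in the order of their replicate number, filled for the retina and open for 661W cells, grey for eGFP and red for *nsHif1a*, and bars give the mean ± SD (n = 5 or 4). In the retina the groups of *Hspa1b*, *Dnajb1* and *Hspa8* do not overlap, and *Hspb1* is high in 3 of 5 *nsHif1a* retinas.

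*Hspa1b* was counted at 45.1, 48.5, 38.6, 34.5 and 35.6 CPM in the 5 eGFP retinas and at 66.4, 64.7, 62.1, 69.0 and 56.3 CPM in the 5 *nsHif1a* retinas. Every *nsHif1a* retina was above every eGFP retina, which held for 3.25% of all genes tested. For none of the 10 genes was every *nsHif1a* retina below every eGFP retina, as for 2.69% of all genes. The mean rose from 40.4 ± 6.10 to 63.7 ± 4.86 CPM (SD, n = 5), a log2FC of 0.69 (SE 0.0879, limma adjusted *p* = 0.0012). Whole retinas were measured, so more transcript per cell and more cells that contain it cannot be told apart, here and for the other genes.

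*Hspa1a*, whose coding region encodes a nearly identical protein, stood at 28.97, 32.01, 22.3, 22.5 and 21.996 CPM with eGFP and at 37.2, 32.2, 30.1, 28.1 and 31.1 CPM with *nsHif1a*. The groups overlapped, since eGFP retinas 1 and 2 lay among the *nsHif1a* retinas, and the log2FC of 0.34 (SE 0.107) did not pass the test (adjusted *p* = 0.085). The sum of both genes increased from 66.0 ± 10.6 to 95.4 ± 6.07 CPM (log2FC 0.57, SE 0.0888, limma adjusted *p* = 0.0033). *Hspa1a* took 39.1%, 39.8%, 36.6%, 39.5% and 38.2% of the CPM of the pair in the eGFP retinas and 35.9%, 33.2%, 32.7%, 28.95% and 35.6% in the *nsHif1a* retinas. All *nsHif1a* retinas were below all eGFP retinas, and the difference of the mean shares, *nsHif1a* minus eGFP, was -5.38 percentage points (exact permutation test, two-sided, *p* = 0.0079, the smallest that 5 against 5 libraries can give, and 0.016 adjusted over the 2 experiments). This share was compared after the values were seen, and it rests on how reads of the shared sequence were divided. In 661W cells the share was 14.6% ± 2.71 with eGFP and 12.6% ± 1.41 with *nsHif1a* (n = 4, exact permutation *p* = 0.26).

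*Dnajb1* (chr8:84334811-84339820) was counted at 48.6, 52.9, 45.0, 47.6 and 44.7 CPM in the eGFP retinas and at 78.1, 63.3, 72.8, 85.8 and 56.8 CPM in the *nsHif1a* retinas. The groups did not overlap, but the *nsHif1a* retinas were spread more widely, with retinas 2 and 5 nearest to the controls. The mean increased from 47.7 ± 3.32 to 71.4 ± 11.5 CPM (log2FC 0.57, SE 0.0929, limma adjusted *p* = 0.0044). *Bag3*, a co-chaperone that links Hsp70 to small heat shock proteins and to autophagy, was low in the retina, with 9.53, 13.7, 8.70, 10.3 and 11.3 CPM against 12.5, 15.5, 13.9, 14.7 and 13.2 CPM. The groups overlapped through eGFP retina 2. The log2FC of 0.42 (SE 0.109) had a limma adjusted *p* of 0.045 and was below the fold threshold. The adjusted *p* of *Bag3* was 0.105 by edgeR, 0.0503 by DESeq2, 0.081 by limma without sample weights, 0.084 without the low-count filter and 0.12 with the replicate block, and ranged from 0.015 to 0.12 on leaving out single retinas.

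The constitutive *Hspa8* (chr9:40711630-40731039) was counted at 313, 308, 297, 288 and 307 CPM with eGFP. The 5 *nsHif1a* retinas had 449, 420.5, 493, 467 and 343 CPM, all above the controls, with retina 5 lowest. The mean increased from 303 ± 10.02 to 435 ± 57.6 CPM (log2FC 0.53, SE 0.0724, limma adjusted *p* = 0.0016). The ratio of the CPM of the *Hspa1a* and *Hspa1b* pair to that of *Hspa8* was 0.187 to 0.262 in the eGFP retinas and 0.187 to 0.255 in the *nsHif1a* retinas, so that the groups overlapped. *Hsp90ab1*, the constitutive cytosolic Hsp90, had a log2FC of only 0.07 (SE 0.0569, adjusted *p* = 0.49) at means of 631 and 669 CPM. The genes called higher in the retina, before *Xist* counts were taken into account, thus included 2 of 7 inducible genes and 1 of 2 constitutive genes.

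The 3 increases were smaller once the *Xist* difference between the groups was taken into account. Within the eGFP group, *Hspa1b* was 45.1 and 48.5 CPM in the retinas with *Xist* counts and 34.5 to 38.6 CPM in those without, and *Hspa1a* was 28.97 and 32.01 CPM against 21.996 to 22.5 CPM. With the *Xist* class as a covariate, the log2FC was 0.44 for *Hspa1b* (limma adjusted *p* = 0.012), 0.50 for *Hspa8* (0.018, just under the fold threshold), 0.47 for *Dnajb1* (0.060) and 0.04 for *Hspa1a* (0.84), and none of the 10 genes was called. Of all 18859 genes, 105 were called up and 93 down in this fit. Among the 7 retinas with *Xist* counts alone, 2 with eGFP and 5 with *nsHif1a*, the values were 0.45 for *Hspa1b* (adjusted *p* = 0.032), 0.50 for *Hspa8* (0.053) and 0.47 for *Dnajb1* (0.12). Here 64 of 19926 genes were called up and 76 down. The part of sex in the differences was not tested beyond these fits.

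**Figure D2:**
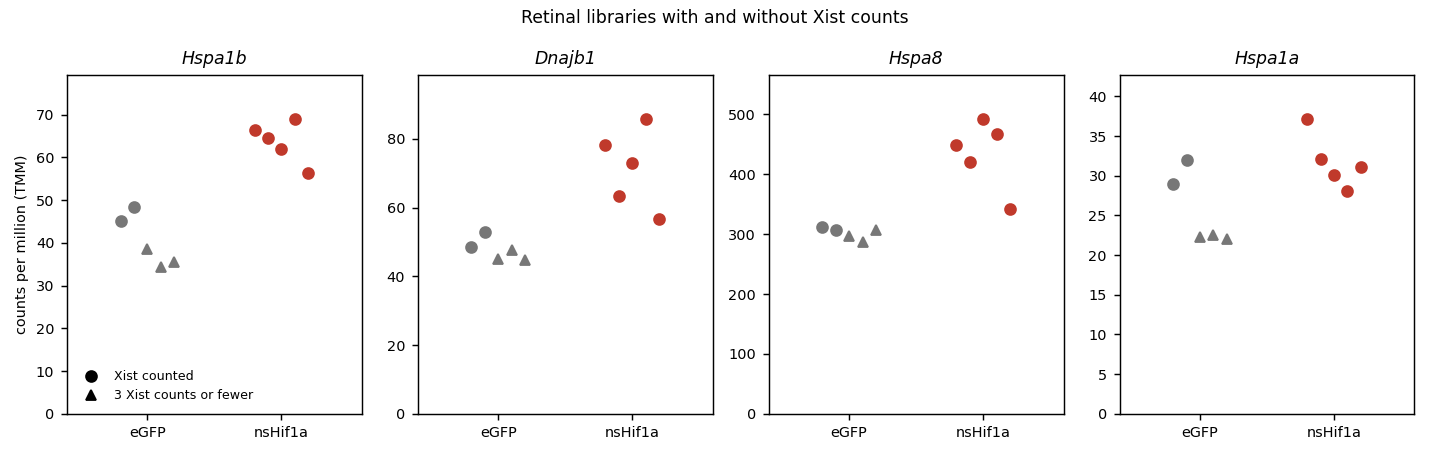
CPM (TMM-scaled) of *Hspa1b*, *Dnajb1*, *Hspa8* and *Hspa1a* in the 10 retinas, circles for libraries with *Xist* counts and triangles for the 3 eGFP libraries with 3 *Xist* counts or fewer. The circles of the *nsHif1a* group lie above the circles of the eGFP group for *Hspa1b*, *Dnajb1* and *Hspa8*, and overlap them for *Hspa1a*. The share of all genes with circles divided in this way was not counted.

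*Hspb1* (chr5:135916760-135918417), a small heat shock protein that glia and lens cells also express, had the largest estimate in the retina and the largest spread. It was counted at 5.87, 16.1, 5.31, 15.4 and 6.31 CPM with eGFP and at 53.0, 7.10, 50.9, 73.8 and 6.27 CPM with *nsHif1a*. Retinas 1, 3 and 4 of the *nsHif1a* group were the highest of all 10 libraries, and retinas 2 and 5 lay within the range of the controls. The log2FC of 1.38 (SE 0.831, 95% interval -0.43 to 3.18) did not pass the test (adjusted *p* = 0.36). The counts of the 6 γ-crystallin genes *Cryga* to *Crygf*, which encode proteins of lens fibre cells, followed the same retinas. They took 0.0692%, 0.210%, 0.0634%, 0.280% and 0.0956% of all counts in the eGFP retinas and 1.06%, 0.130%, 1.12%, 1.82% and 0.0956% in the *nsHif1a* retinas. Of the other lens markers, *Bfsp1* and *Bfsp2* were also highest in these retinas, whereas *Cryaa* and *Mip* were not, and *Lim2* was at 0. *Cryaa* was 14807 CPM in eGFP retina 4, against 12657.5 and 13559 CPM in *nsHif1a* retinas 1 and 3. For *Mip* the values of these retinas were 792 against 502 and 760 CPM. With the mean log2 CPM of the γ-crystallin genes as a covariate the log2FC of *Hspb1* was -0.52 (adjusted *p* = 0.13), and without *nsHif1a* retinas 1, 3 and 4 it was -0.35 (adjusted *p* = 0.81).

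The same 3 retinas bear on the calls of *Hspa8* and *Dnajb1*. With the γ-crystallin covariate *Hspa8* had a log2FC of 0.40 (limma adjusted *p* = 0.023) and *Dnajb1* one of 0.34 (adjusted *p* = 0.029), both below the fold threshold, whereas *Hspa1b* kept a log2FC of 0.64 (adjusted *p* = 0.012) and was the single one of the 10 genes called. Of all 18859 genes, 192 were called up and 79 down in this fit. Without *nsHif1a* retinas 1, 3 and 4, an alternative chosen after the data were seen, *Hspa8* had a log2FC of 0.33 (adjusted *p* = 0.056), *Dnajb1* one of 0.35 (adjusted *p* = 0.055) and *Hspa1b* one of 0.62 (adjusted *p* = 0.033). Here 220 of 20080 genes were called up and 39 down.

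**Figure D3:**
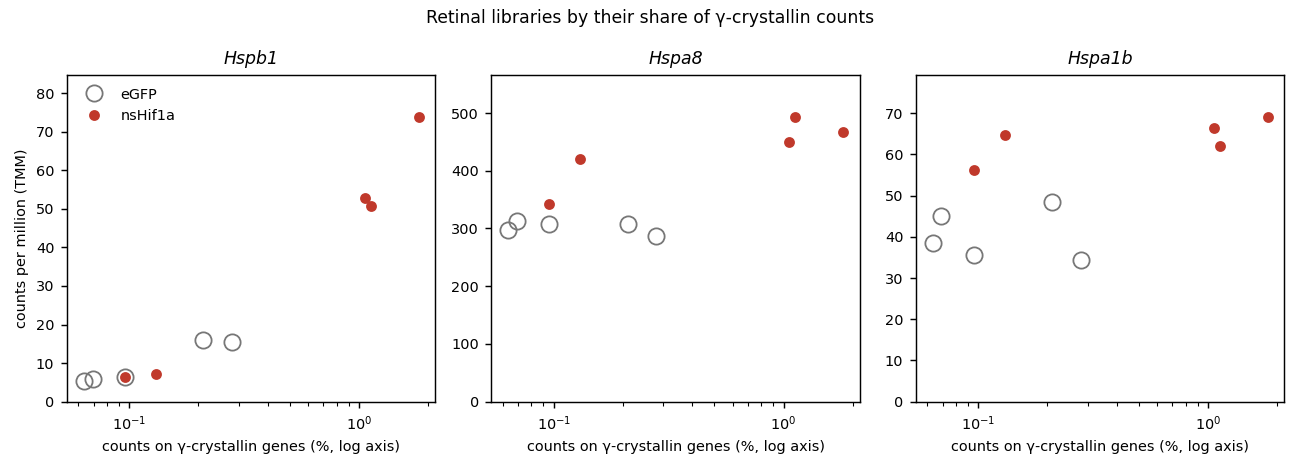
CPM (TMM-scaled) of *Hspb1*, *Hspa8* and *Hspa1b* in the 10 retinas against the percentage of all counts on γ-crystallin genes (log axis), open grey circles for eGFP and red points for *nsHif1a*. *Hspb1* is highest in the 3 *nsHif1a* retinas with over 1% γ-crystallin counts, and the groups of *Hspa8* and *Hspa1b* do not overlap.

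The remaining inducible genes and *Hspa4l* did not pass the test in the retina, and their groups overlapped. *Hsph1*, the inducible Hsp110 (chr5:149537636-149560156), ranged from 64.9 to 90.8 CPM with eGFP and from 72.1 to 96.7 CPM with *nsHif1a* (log2FC 0.14, 95% interval -0.07 to 0.35, adjusted *p* = 0.42). *Hsp90aa1*, the inducible Hsp90, ranged from 801 to 1132 CPM and from 901 to 1055 CPM (log2FC 0.11, 95% interval -0.05 to 0.28, adjusted *p* = 0.41). *Hspa4l*, an Hsp110-like exchange factor that is abundant in the retina, ranged from 326 to 414 CPM and from 321 to 339.7 CPM (log2FC -0.10, 95% interval -0.22 to 0.02, adjusted *p* = 0.31). The 95% intervals of these 3 genes and of *Hsp90ab1* (-0.05 to 0.20) lie within the fold threshold on both sides, in a fit without the *Xist* class. Compared with the 2 eGFP retinas with *Xist* counts alone, every *nsHif1a* retina was higher for *Hsph1* (64.9 to 66.5 against 72.1 to 96.7 CPM). The same held for *Hsp90aa1* (801 to 859 against 901 to 1055 CPM), whereas *Hsp90ab1* and *Hspa4l* overlapped. The share of all genes divided in this way was not counted, and with only 2 eGFP retinas these values are given as a description.

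**Figure D4:**
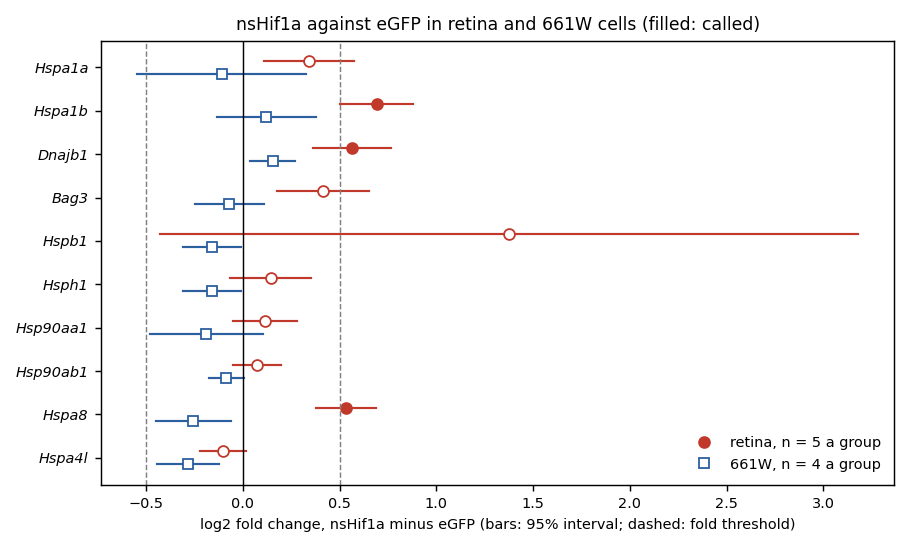
log2 fold change of each gene, *nsHif1a* minus eGFP, in the retina (red circles, n = 5 per group) and in 661W cells (blue squares, n = 4 per group), with 95% intervals from limma. Filled symbols were called, and dashed lines mark the fold threshold of 0.5. *Hspa1b*, *Dnajb1* and *Hspa8* are filled in the retina, none is filled in 661W cells, and the interval of *Hspb1* in the retina spans -0.43 to 3.18.

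In 661W cells, *nsHif1a* changed none of the 10 genes by the rule that called 1.21% of the 15962 genes tested up and 0.0626% down. Without the fold threshold none was called either, against 2.06% of all genes up and 0.426% down. None was called by edgeR or DESeq2, and 5 had an unadjusted *p* under 0.05 (*Dnajb1* higher, *Hspa4l*, *Hspa8*, *Hspb1* and *Hsph1* lower). The share of all genes with such a *p* was not counted, so these 5 are given as a description. The median log2FC of the 10 genes was -0.13. The labels do not say that the 4 libraries of a group came from separate cultures, so the *p*-values measure the spread between these libraries, which may be technical.

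*Hspa4l* (chr3:40698643-40750538) came nearest to a call. It was counted at 176, 179, 156 and 152 CPM with eGFP and at 129.7, 131, 148 and 136 CPM with *nsHif1a*, and every *nsHif1a* library was below every eGFP library, as for 6.14% of all genes. The log2FC was -0.28 (SE 0.0705, limma adjusted *p* = 0.068), and the adjusted *p* of *Hspa4l* ranged from 0.0027 to 0.15 on leaving out single libraries. *Hsp90ab1* (chr17:45878552-45891949) also had all *nsHif1a* libraries below all eGFP libraries, with 3747, 3779.7, 3584 and 3609.6 CPM against 3326, 3477, 3486 and 3572 CPM, but the log2FC was only -0.09 (adjusted *p* = 0.26). For *Dnajb1* every *nsHif1a* library was above every eGFP library (90.2 to 98.8 against 99.1 to 110.4 CPM), as for 7.49% of all genes, with a log2FC of 0.15 (SE 0.0525, adjusted *p* = 0.15, and 0.022 without *nsHif1a* replicate 2).

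*Hspa8* was counted at 1402, 1429.6, 1524 and 1469 CPM in the eGFP cells and at 1075, 1091, 1369 and 1425 CPM in the *nsHif1a* cells, so that replicates 1 and 2 with *nsHif1a* were low, replicate 4 lay within the range of the controls and replicate 3 just below it (log2FC -0.26, SE 0.0856, adjusted *p* = 0.14). *Hsp90aa1* (chr12:110656842-110669166) had the same order, with 703, 699, 821 and 805 CPM against 549, 562, 804 and 822 CPM (log2FC -0.19, adjusted *p* = 0.44). Replicates 1 and 2 alone gave a log2FC of -0.39 for *Hspa8* and -0.34 for *Hsp90aa1*, and replicates 3 and 4 alone gave -0.10 and 0.00. *Hsph1* behaved likewise, at -0.33 in replicates 1 and 2 and 0.01 in replicates 3 and 4, and so did *Hspb1*, at -0.30 and -0.00. Over all genes, 1336 of 16122 were called up and 648 down in replicates 1 and 2 alone. In replicates 3 and 4 alone, 186 of 16211 genes were called up and 43 down. Total *Hif1a* itself was lower in *nsHif1a* replicates 1 and 2 (1219 and 1239 CPM) than in replicates 3 and 4 (1950.3 and 1821 CPM), so that the libraries with more *Hif1a* RNA had the values closer to the controls. Single libraries decided these values. Without *nsHif1a* replicate 4, *Hspa8* had a log2FC of -0.41 (limma adjusted *p* = 0.00044), *Hsp90aa1* one of -0.41 (0.0039), *Hspb1* one of -0.26 (0.0050) and *Hsph1* one of -0.25 (0.0084), whereas without replicate 1 the 4 adjusted *p* were 0.44, 0.62, 0.59 and 0.53. Leaving out replicate 3 or replicate 2 gave like values, and none was past the fold threshold. The share of all genes with an adjusted *p* under 0.05 in these fits was not counted. What separates the 2 sets of replicates is not given in the labels, and its part in these values was not tested.

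*Hspa1b* was low in 661W cells and did not differ beyond the spread of the libraries, at 33.2, 33.5, 28.1 and 28.2 CPM with eGFP and 36.8, 39.1, 27.8 and 29.7 CPM with *nsHif1a* (log2FC 0.12, 95% interval -0.14 to 0.38, adjusted *p* = 0.59). Both groups were higher in replicates 1 and 2, and without *nsHif1a* replicate 3 the log2FC of *Hspa1b* was 0.28 (adjusted *p* = 0.028). *Hspa1a* was the least counted of the 10 genes, with 67 to 112 counts per library (log2FC -0.11, adjusted *p* = 0.79), and the sum of the pair gave a log2FC of 0.09 (adjusted *p* = 0.70). *Bag3* (chr7:128125283-128148705), at 112 to 130.1 CPM with eGFP and 102 to 125 CPM with *nsHif1a*, had a log2FC of -0.07 (adjusted *p* = 0.66).

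The difference between the effects in the retina and in 661W cells was tested with an interaction term over all 18 libraries, which was past an adjusted *p* of 0.05 for 2.33% of 20999 genes. It passed for *Hspa8* (0.74 log2 units, SE 0.120, limma adjusted *p* = 0.0044) and *Hspa1b* (0.63, SE 0.151, adjusted *p* = 0.035), both higher in the retina. For *Dnajb1* (0.39, adjusted *p* = 0.090) and *Bag3* (0.45, adjusted *p* = 0.12) it did not pass, and for *Hspb1* the estimate of 1.502 had an SE of 0.814 (adjusted *p* = 0.37). The estimates of all 10 genes were above 0, but the share of all genes with such an estimate was not counted. The call of *Hspa1b* was lost with the *Xist* class as a covariate (0.39, adjusted *p* = 0.18) and on leaving out most single retinas or eGFP replicate 1 or 2 of the cells, with adjusted *p* up to 0.085. Without the 3 *nsHif1a* retinas with over 1% γ-crystallin counts neither gene passed (*Hspa8* 0.54, adjusted *p* = 0.0996, *Hspa1b* 0.54, adjusted *p* = 0.22). Without the low-count filter neither gene passed (*Hspa8* 0.70, adjusted *p* = 0.44, *Hspa1b* 0.62, adjusted *p* = 0.072), in a fit where the SE was 0.351 for *Hspa8* and 70.03 for *Hsp90ab1*. The experiments also differ in delivery, promoter, duration and cell type, which cannot be told apart.

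The levels were ordered by CPM per kilobase of exon within each group, without the reads on the sequence-sharing genes. In the eGFP retinas *Hsp90aa1* was highest (208 ± 29.8 CPM per kb, SD, n = 5), followed by *Hsp90ab1* (125 ± 9.13) and *Hspa8* (119 ± 3.93), whose ranges overlapped, and then *Hspa4l* (33.6 ± 3.33). *Hspa1b* (14.4 ± 2.178), *Dnajb1* (12.7 ± 0.884), *Hsph1* (12.1 ± 1.80), *Hspb1* (9.37 ± 5.21) and *Hspa1a* (8.61 ± 1.56) followed, each overlapping its neighbour, and *Bag3* was lowest (4.10 ± 0.739). With *nsHif1a*, *Hspa8* (170.5 ± 22.6) stood above *Hsp90ab1* (133 ± 9.18), with overlapping ranges.

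The order was different in 661W cells. In the eGFP cells *Hsp90ab1* (729.6 ± 19.3 CPM per kb, n = 4) and *Hspa8* (571 ± 20.7) came before *Hsp90aa1* (171 ± 14.7), *Hspb1* (83.5 ± 2.98) and *Bag3* (45.5 ± 3.31). *Hsph1* (32.8 ± 1.42), *Dnajb1* (24.98 ± 0.969) and *Hspa4l* (15.6 ± 1.27) followed, and *Hspa1b* (10.97 ± 1.06) and *Hspa1a* (1.77 ± 0.405) were last. No neighbours in this order overlapped, whereas with *nsHif1a* *Hsph1* overlapped *Dnajb1*, and *Hspa4l* overlapped *Hspa1b*. The ratio of *Hsp90aa1* to *Hsp90ab1* CPM was 1.24 to 1.90 in the retinas and 0.162 to 0.231 in the cells, and that of the *Hspa1a* and *Hspa1b* pair to *Hspa8* was 0.187 to 0.262 and 0.0211 to 0.0402. The tables of the 2 experiments were scaled separately, so only the order and the ratios within a library are compared between them. The order at the top of the retina depends on the length used. With that of the canonical transcript in place of all exons, *Hsp90aa1* (260.3 ± 37.3) and *Hsp90ab1* (233 ± 17.04) overlapped in the eGFP retinas and *Hspa8* (126 ± 4.18) lay below both, and in the *nsHif1a* retinas *Hsp90ab1* (248 ± 17.1) stood above *Hspa8* (182 ± 24.1) without overlap.

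Other genes of the chaperone system were read from 9 lists with 61 genes, of which 60 were tested in the retina and 58 in 661W cells. In the retina 1 of the 60 genes was called up and none down, near the shares of all genes (1.08% and 0.912%). This was *Hspa2*, a further cytosolic Hsp70, which was 6.36 CPM with eGFP and 9.54 CPM with *nsHif1a* (log2FC 0.59, SE 0.143, limma adjusted *p* = 0.032) with overlapping groups. It was not called by edgeR, by limma without sample weights, without the low-count filter, with the replicate block, with the *Xist* class as a covariate or without any of 5 single retinas. At an adjusted *p* under 0.05 without the fold threshold, 4 genes were higher and 2 lower, where 3.31% and 2.47% of all genes were. The higher ones were *Hspa2*, the J-domain protein gene *Dnaja1* (log2FC 0.29, adjusted *p* = 0.0082), the mitochondrial protease *Lonp1* (0.30, 0.020) and *Tcp1*, a subunit of the TRiC chaperonin (0.25, 0.011). The lower ones were *Hspa12a* (-0.13, 0.0497) and the small heat shock protein *Hspb6* (-0.21, 0.036).

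No gene of the other lists passed the test in the retina. Among the largest estimates were 0.45 for *Hsf4* among 4 heat shock factor genes (adjusted *p* = 0.41), 0.20 for *Bag2* among 8 Hsp70 co-chaperones (0.26), and 0.24 for *Ahsa2*, an activator of the Hsp90 ATPase, among 11 Hsp90 co-chaperones (0.055). *Hsf1* itself was 36.3 CPM with eGFP and 33.4 CPM with *nsHif1a* (log2FC -0.12, adjusted *p* = 0.26). Of the 60 genes, 40 had a higher and 20 a lower estimate, and their median log2FC was 0.04. Of all 18859 genes, 9315 had a higher estimate.

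In 661W cells none of the 58 genes tested was called by limma, edgeR or DESeq2, and 22 had an unadjusted *p* under 0.05 (6 higher, 16 lower). The share of all genes with such a *p* was again not counted. Of all 15962 genes tested, 8026 had a lower estimate. All 11 Hsp90 co-chaperones had a lower estimate (median log2FC -0.11), led by *Ahsa1* (-0.26, adjusted *p* = 0.18), as did 7 of 8 TRiC subunits (median -0.14), led by *Cct5* (-0.18, 0.087). Among the largest estimates in the other lists were 0.79 for *Hspb7* (adjusted *p* = 0.20), -0.33 for *Hspa12a* (0.050), 0.31 for *Lonp1* (0.12), 0.25 for *Hsf4* (0.44), 0.17 for *Dnajb4* (0.26) and 0.15 for *Bag5* (0.21). Of the 58 genes, 20 had a higher and 38 a lower estimate, with a median of -0.05. Without *nsHif1a* replicate 3 of the cells, *Hspb7*, *Hspb2* and *Hsf4* were called up, and without replicate 4 *Hspb7* and *Hspb2*. The interaction passed for 6 of the 61 genes, among them *Tcp1*, *Dnaja1*, *Ahsa2* and *Dnaja2*, with a higher effect in the retina, and *Hspa9*, with a lower one.

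**Figure D5:**
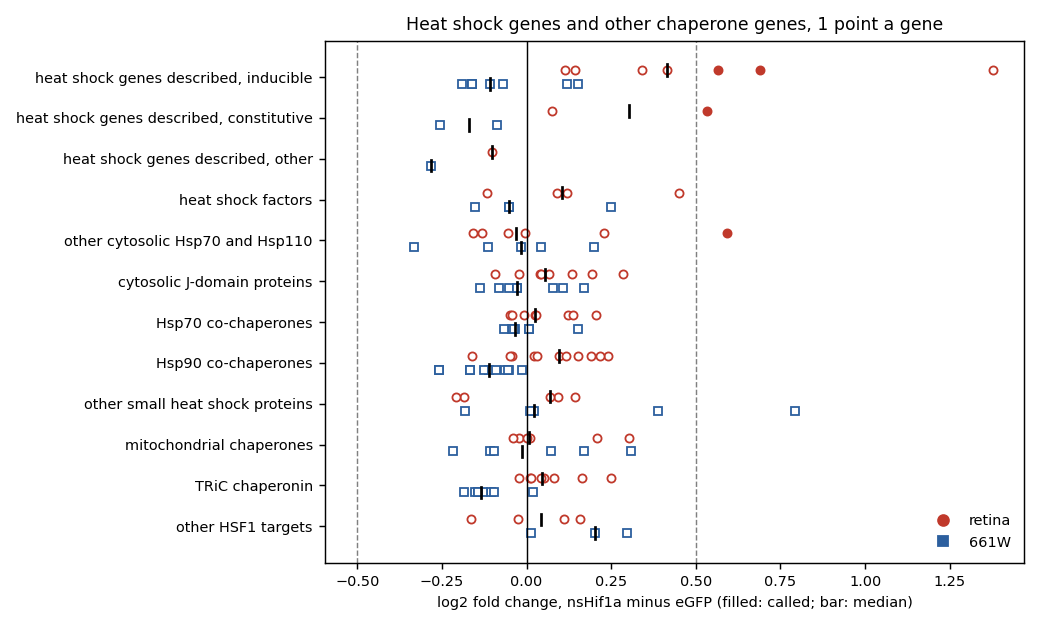
log2 fold change, *nsHif1a* minus eGFP, of the 10 genes and of the other chaperone genes by list, 1 symbol per gene tested, red circles for the retina and blue squares for 661W cells. Filled symbols were called, black bars are list medians and dashed lines mark the fold threshold. *Hspa1b*, *Dnajb1*, *Hspa8* and *Hspa2* are the filled symbols, and the squares of the Hsp90 co-chaperones all lie below 0.

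The genes whose levels followed *Hspa8* most closely over the 18 libraries, after subtraction of each experiment's mean, were the annotated genes that share its sequence, *Gm15459* (Pearson r = 0.98 across libraries), *Gm8355* (0.95) and *Gm6210* (0.95), then *Cxxc5* (0.92) and *Phlda3* (0.92), among 14122 genes. In the retina these 3 had log2FC of 0.41 (limma adjusted *p* = 0.0046), 0.47 (0.014) and 0.50 (0.0044), and whether their reads came from *Hspa8* was not tested. For *Hspa1b* the closest genes were *Mllt3* (0.90), *Aph1a* (0.90), *H2-Q2* (0.89), *Retreg3* (0.89) and *Srsf7* (0.89). The 18 points share the group difference and the replicate sets, and the values are given as a description.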

How the data were processed

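RNA from retinas (5 mice per group) and 661W cells (4 libraries per group) was compared, with groups taken from the sample labels. The authors aligned stranded paired-end reads to GRCm39 with Rsubread and assigned them to genes of the gencode M36 basic annotation with featureCounts. They deposited raw counts, 1 table for each experiment. Where genes are almost identical, such counting can drop their reads or divide them. A count of 3 equals 0.168 to 0.233 CPM, depending on the library, and this limit reflects counting error alone.

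Genes with low counts were left out by filterByExpr (minimum count 10). TMM factors came from edgeR 4.0.16, and voomWithQualityWeights values were fitted over all genes with limma 3.58.1 under R 4.3.3. Adjusted *p*-values are Benjamini-Hochberg values over all genes tested, and all tests are two-sided. For correlations, log2 CPM was computed with 2 as the prior count. The fits were tested on simulated counts with 200 genes changed 2-fold, of which 77.0% were recovered in the retina, 76.5% in 661W cells and 45.5% for the interaction. The genes and lists were chosen with earlier results of these data known. Named beyond the 10 genes were *Hif1a*, the other chaperone genes called, the gene with the largest absolute log2FC of each list, and the 5 genes most correlated with *Hspa1b* and with *Hspa8*. The values of 1 of the genes so named are not reported here. *Hsf1*, the sequence-sharing genes, the genes of the interaction, those past the adjusted *p* alone and those called only under an alternative were named after their values were seen.

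Sequences and positions came from GRCm39 with gencode M39, which named 78168 of the genes in the tables. Same-numbered 661W libraries deviated together (*r* = 0.238, 0.227, 0.259 and 0.269), so their numbers, given in the labels, were treated as pairs in an alternative fit with a replicate block. The best match was the library of the same number for replicates 3 and 4, but not for replicates 1 and 2. The pairing by number is therefore uncertain. Retinal libraries of the same number did not deviate together (*r* from -0.148 to 0.138). Further alternatives were DESeq2 1.42.0 and the quasi-likelihood test of edgeR, unweighted voom, other size factors, filters and fold thresholds, summed *Hspa1a* and *Hspa1b* counts, *Xist* class, γ-crystallin mean, replicate set, and the omission of each library.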

Additional observations from a re-analysis of the deposited data

Results flagged for a closer look

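The *nsHif1a* effect differed between the retina and 661W cells for *Hspa1b* by 0.63 log2 units and for *Hspa8* by 0.74 log2 units (interaction term, limma adjusted *p* = 0.035 and 0.0044). Neither passed without the low-count filter (adjusted *p* = 0.072 and 0.44) or without the 3 *nsHif1a* retinas rich in γ-crystallin counts (0.22 and 0.0996). In the fit without the filter the SE of *Hspa8* and *Hsp90ab1* was far above that of the main fit, as given above. No library of the 40 sets of values (10 genes in 4 groups) stood apart by Dixon's test at the 95% level (0 outliers), although chance alone would mark about 1 in 20.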

How the results depend on the processing

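In the retina, 2 to 3 of the 10 genes were called on leaving out single libraries: *Hspa8* fell below the fold threshold without *nsHif1a* replicate 3 (log2FC 0.47) and *Dnajb1* without *nsHif1a* replicate 4 (0.50). None was called with the *Xist* class as a covariate (0), among retinas with *Xist* counts (0) or at a log2FC above 1 (0), and 1 with the γ-crystallin covariate or without the 3 *nsHif1a* retinas rich in γ-crystallin counts (1). The counts over all genes in the *Xist* and γ-crystallin fits are given above. In 661W cells 0 were called under each alternative run, although without *nsHif1a* replicate 3 or 4 the adjusted *p* was under 0.05 for *Hspa8*, *Hsp90aa1*, *Hsp90ab1*, *Hspa4l*, *Hspb1*, *Hsph1* and *Hspa1b*, below the fold threshold. The share of all genes with such an adjusted *p* in these fits was not counted, so the genes are named as a description. Over all genes, 1336 were called up and 648 down in replicates 1 and 2 alone, and 186 and 43 in replicates 3 and 4 alone. Of the other chaperone genes in the retina, 0 were called by edgeR, by voom without weights, without the low-count filter, with the replicate block, with the *Xist* class as a covariate, among *Xist* libraries and above a log2FC of 1, 6 without the fold threshold, and 0 to 1 on leaving out single libraries (0 without eGFP replicate 3, 4 or 5 or *nsHif1a* replicate 1 or 2). In 661W cells 0 to 3 of them were called on leaving out single libraries, and 1 in replicates 1 and 2 alone (*Hspb2*).

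The interaction passed for 1 to 6 genes on leaving out single libraries (6 without 661W *nsHif1a* replicate 3 or 4), for 0 without the low-count filter or the γ-crystallin-rich retinas, for 1 without sample weights, with the *Xist* class or with *Hspa1a* and *Hspa1b* summed, and for 4 with the 661W replicate set as a covariate. It passed for 2.33% of all genes in the main fit, and the share of all genes in these alternatives was not counted. The fit without the low-count filter is the one with the enlarged SE given above. With the replicate block, the log2FC in 661W cells was -0.22 for *Hspa8* (limma adjusted *p* = 0.17) and -0.26 for *Hspa4l* (0.14), and the paired fit changed no call of the 10 genes within an experiment, while *Bag3* passed the interaction (0.48, adjusted *p* = 0.042).

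On leaving out single retinas the difference in the share of *Hspa1a* in its pair ranged from -6.04 to -4.30 percentage points.

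Directions turned for estimates that were not called. In the retina these were *Hspb1* (-0.52 with the γ-crystallin covariate, -0.35 without the γ-crystallin-rich retinas, and -0.21 for its interaction there), *Hsp90ab1* (-0.016 and -0.026 in the same fits) and *Hspa4l* (0.019 with the *Xist* class as a covariate, 0.021 among *Xist* libraries). In 661W cells *Hspa1a* turned when summed with *Hspa1b* (0.087), and in replicates 3 and 4 alone *Hsp90aa1* (0.0026) and *Hsph1* (0.0073) turned. On leaving out single 661W libraries the log2FC ranged from -0.21 to 0.012 for *Hspa1a* (above 0 without eGFP replicate 1), from -0.17 to 0.055 for *Bag3* (above 0 without eGFP replicate 4 or *nsHif1a* replicate 1 or 2), and from -0.065 to 0.28 for *Hspa1b* and -0.41 to 0.084 for *Hsp90aa1* (both turned without *nsHif1a* replicate 1 or 2). The cause of these changes was not tested.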
